A study of Mus musculus with 4 samples.

Results

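The mitochondrial ribosomal protein genes were taken as every gene of the deposited mRNA table whose symbol starts with Mrpl or Mrps followed by a digit. There were 72 such genes among 16470 in the table, 44 named Mrpl and 28 named Mrps, each with 1 transcript. The noncoding table held 0 rows that met the rule. The choice used names and no measured value.

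RNA was sequenced from C57BL/6 mouse embryonic stem cells at passages 25 to 30, grown without feeder cells on gelatin in medium with LIF and serum. The groups were RNA from an immunoprecipitation with anti-FLAG M2 gel from cells transfected with FLAG-tagged mutant Dis3l2 (mutant IP), the same immunoprecipitation from mock-transfected cells (mock IP), and RiboMinus-selected input RNA of the mutant and of the mock cells (mutant input and mock input). Each of the 4 groups was 1 library, so no difference below has a replicate check and no p-value is given. Dis3l2 degrades RNA from its 3′ end, with a preference for tails of uridine. The labels name neither the mutation nor the vector, and they mention no change to the cells' own Dis3l2.

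Mitochondria carry a ribosome of their own that makes the membrane subunits of the respiratory chain encoded in mitochondrial DNA. Its RNA comes from the mitochondrial genome, but all of its proteins are encoded in the nucleus, made in the cytosol and imported. Some descend from proteins of the bacterial ribosome and others are found only in mitochondria. Here their mRNAs were measured as cellular transcripts, in cells and on the gel.

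Values in the tables are whole reads divided by 1 factor per library, 2.7 for the mutant IP, 2.5 for the mock IP, 1.8 for the mutant input and 2.5 for the mock input. They were not divided by transcript length, so the order of genes by value is not an order of mRNA levels. The mRNA table held 2275647 reads in the mutant IP, 1860030 in the mock IP, 307324 in the mutant input and 291175 in the mock input. The gene Lars2 alone held 52.0%, 58.6%, 33.3% and 34.8% of them in that order. The deposited values of Dis3l2, on 127 mutant-IP and 21 mock-IP reads, gave a ratio of 5.6 (95% interval 3.51 to 9.36). Of 13 embryonic stem cell markers, 12 or more had reads in every library, with 4517, 3153, 158 and 213 summed reads in the same order of libraries. The 3 fibroblast markers in the table summed to 99, 27, 16 and 10 reads, with 1 of them at 0 in the mutant IP and 2 in the mutant input. Markers of endoderm summed to 20, 26, 2 and 0, of mesoderm to 14, 11, 3 and 0 and of ectoderm to 63, 69, 16 and 16. The part of these markers in the results was not tested.

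The 72 genes were a small part of every library. They held 1963 reads, or 0.0863% of the table (exact Clopper-Pearson 95% interval 0.0825 to 0.0902), in the mutant IP and 1311 reads, or 0.0705% (0.0667 to 0.0744), in the mock IP. The inputs held 369 reads, or 0.120% (0.108 to 0.133), in the mutant and 428 reads, or 0.147% (0.133 to 0.162), in the mock. Outside Lars2 the shares were 0.180%, 0.170%, 0.180% and 0.226%, so the mock input was then highest and the other libraries lay close together. All intervals cover counting error only, since reads copied by PCR are not independent molecules.

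Single genes had more reads in the IPs, which held more reads in all, than in the inputs. The median gene had 20.5 mutant-IP and 11 mock-IP reads, against 0 in each input. In the mutant IP 7 of the 72 genes were at 0, in the mock IP 11, in the mutant input 43 and in the mock input 38. As shares these are 9.72%, 15.3%, 59.7% and 52.8%, beside 19.2%, 21.6%, 48% and 49.2% of all 16470 genes. A gene with 0 reads can still have had up to 3, which is worth 1.11 in the mutant IP, 1.20 in the mock IP, 1.67 in the mutant input and 1.20 in the mock input. Only 18 genes had a read in all 4 libraries, and 10 had at least 5 in each.

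**Figure D1:**
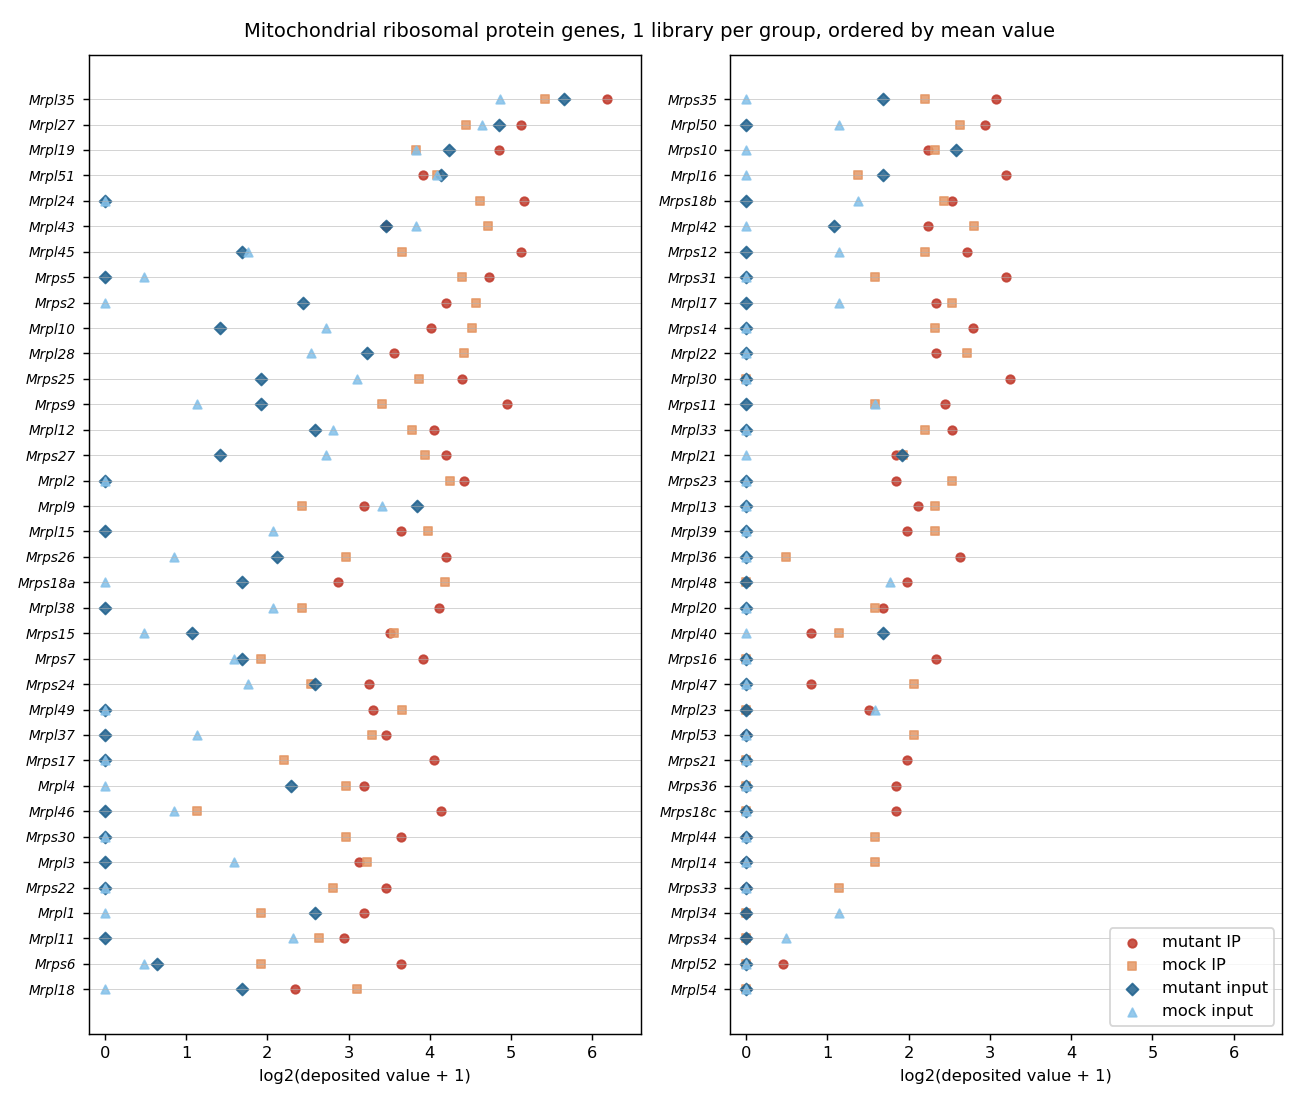
Each of the 72 mitochondrial ribosomal protein genes is a row, ordered by mean value, and the points give log2 of the deposited value plus 1 in the mutant IP, mock IP, mutant input and mock input (1 library each). Mrpl35 is highest in every library, and most genes sit at 0 in 1 or both inputs while keeping values in the IPs.

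Mrpl35, whose product has a bacterial counterpart in the large subunit, had the most reads in each library: 193 and 104 for the mutant and mock IPs, against 89 and 70 for the mutant and mock inputs. Mrpl27, also with a bacterial counterpart, had 91 and 52 reads in the mutant and mock IPs and 50 and 60 in the mutant and mock inputs. Both were thus well covered in all 4 libraries. Mrpl24, another protein with a bacterial counterpart, had 94 mutant-IP and 59 mock-IP reads but 0 in both inputs. Mrpl51, known only from mitochondrial ribosomes, had 38 and 40 reads in the IPs and 30 and 40 in the inputs, mutant before mock. The contrast between Mrpl24 and the other 3 runs through the comparisons with input below.

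The sequences just before the start sites of these 4 genes are given because the genes carry that contrast. They are the 100 bases before the first listed start in RefSeq's mouse table (build GRCm38.p6, which is not the build of the reads), written 5′ to 3′ on the gene's strand. Capitals mark the letters CCGGAAG or CTTCCGG, the core recognised by ETS factors such as GABPA. Mrpl35 lies at chr6:71823785-71823884 on the minus strand, Mrpl27 at chr11:94653691-94653790, Mrpl51 at chr6:125192100-125192199 and Mrpl24 at chr3:87919444-87919543, the last 3 on the plus strand.
Mrpl35: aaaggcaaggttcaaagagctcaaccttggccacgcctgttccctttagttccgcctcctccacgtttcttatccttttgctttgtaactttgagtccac
Mrpl27: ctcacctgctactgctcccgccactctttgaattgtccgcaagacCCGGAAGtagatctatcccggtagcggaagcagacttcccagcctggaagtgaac
Mrpl51: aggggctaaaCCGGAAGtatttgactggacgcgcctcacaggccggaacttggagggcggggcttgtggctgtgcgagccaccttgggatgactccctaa
Mrpl24: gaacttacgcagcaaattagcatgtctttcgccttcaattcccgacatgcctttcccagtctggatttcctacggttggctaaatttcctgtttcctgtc
Mrpl27 and Mrpl51 hold the ETS letters in these windows. Mrpl35 and Mrpl24 hold none of the 3 motifs searched. The letters are thus absent from Mrpl24 but also from Mrpl35. The same windows of Mrpl2 and Mrps5, not printed here, hold none of the motifs either. Mrpl2 had 0 reads in both inputs, and Mrps5 had 0 in the mutant and 1 in the mock input. All of these genes were picked by hand for their reads. Other genes with many input reads, such as Mrpl19 and Mrpl9, or with 0, such as Mrpl49, were not looked at singly. Whether the letters go with input reads was not tested.

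The promoters of the family were searched for short motifs. Windows of 250 bases before and 50 after the start were found for 64 of the 72 genes, and 3 motifs were searched on both strands, of which the ETS and YY1 letters can overlap in AAG. The ETS letters were in 23 of 64 windows (35.9%), against 15.3% of 11919 windows of genes of the mRNA table and 9.12% of all 27025 windows. The core of NRF1, an activator of nuclear genes for mitochondria, written GCATGCG, was in 7 (10.9%), against 5.97% and 3.64%. AAGATGG, a core of YY1, was in 12 (18.8%), against 6.89% and 6.48%. At least 1 of the 3 was in 34 windows (53.1%), against 25.5% and 17.7%. The median GC content was 58% for the family and 60% for genes of the mRNA table. The differences were not tested. A match describes the letters only, and the libraries measure RNA, not binding of these factors.

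The comparison of mutant IP with mock IP asks which RNAs were recovered with the tagged protein, and the median of the mitochondrial ribosomal protein mRNAs lay close to that of the table. Of 68 genes with a value of at least 1 in either IP, 4 were at least 4-fold higher in the mutant IP and 1 was at least 4-fold lower, on the log2 scale with a pseudocount of 1, which pulls the ratios of low genes toward 1. Counts past a fold are on that scale unless they are said to be of plain ratios, while single ratios with an interval are plain ratios of values. That is 5.88% and 1.47%, where 10.1% of all 14273 features tested were 4-fold higher and 5.74% were 4-fold lower. The median log2 ratio was 0.32, against 0.38 for all features. It was positive for 43 genes and negative for 25, and its middle 50% ran from -0.34 to 1.32. The summed reads gave a ratio of 1.39 (1.29 to 1.49), against 1.13 for all features. The sum for all features includes Lars2, which held 52.0% and 58.6% of the mutant-IP and mock-IP reads and had nearly equal values in both. Outside Lars2 the family's share of reads was 0.180% (0.172 to 0.188) in the mutant IP and 0.170% (0.161 to 0.180) in the mock IP. These intervals overlap, so the summed ratios do not place the family above the rest of the table. With the ratios centred on the median of features with at least 20 reads summed over both IPs, the median of the 68 genes was -0.07, so the direction of the family as a whole depended on the scaling.

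**Figure D2:**
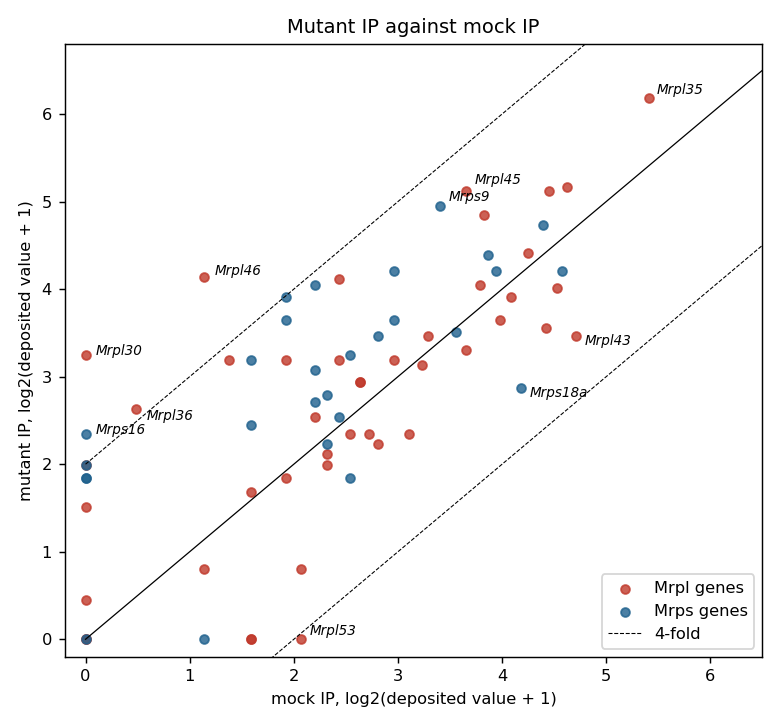
Log2 of the deposited value plus 1 in the mutant IP (vertical) against the mock IP (horizontal) for the 72 genes, Mrpl in red and Mrps in blue, with the line of equality and dashed lines at 4-fold. The genes beyond the dashed lines, Mrpl46, Mrpl30, Mrps16, Mrpl36 and Mrpl53, lie at the low end of at least 1 axis.

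The genes past 4-fold all rested on few reads in the library where they were low. Mrpl46, a protein found only in mitochondrial ribosomes, had 45 mutant-IP reads against 3 mock-IP reads, a ratio of 13.9 (4.46 to 69.9). Mrpl30, with a bacterial counterpart, had 23 against 0 and was at least 7.10-fold higher. Such bounds, here and below, put 3 reads in place of 0 and leave out counting error in the other library. The exact interval of Mrpl30 starts lower, at 5.32. Mrps16 had 11 against 0, at least 3.40-fold higher, and the small protein Mrpl36 had 14 against 1, a ratio of 13.0 with an interval from 1.97 to 548. None of these 4 had more than 3 reads in the mock IP. The only gene past the threshold in the other direction, Mrpl53, known from mitochondria only, had 0 against 8, at least 2.88-fold lower. For Mrps16 and Mrpl53 the bound against 3 reads thus lies below 4-fold, and they pass only on the scale with the pseudocount.

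With at least 5 reads in each IP and the pseudocount, 0 of 52 genes were 4-fold apart, where 2.52% of features were higher and 0.575% lower. On plain ratios 4 of the 52 (7.69%) were 4-fold higher and 0 lower, where 4.41% of features were higher and 1.11% lower. All 4 carry small subunit names. Mrps7, with a bacterial counterpart, had 38 mutant-IP against 7 mock-IP reads, a ratio of 5.03 (2.22 to 13.3). Mrps17, Mrps6 and Mrps31 had 42 against 9, 31 against 7 and 22 against 5, with ratios of 4.32 (2.07 to 10.1), 4.10 (1.77 to 11) and 4.07 (1.5 to 13.8). The call of these 4 genes thus depends on the pseudocount. Among the 21 genes with at least 20 reads in each IP, 0 were 4-fold apart in either direction on either scale. Of 6524 features with that coverage, 0.521% were higher and 0.046% lower. The log2 ratios of the 21 genes ran from -1.25 to 1.55 with a median of 0.17, against 0.31 for those features. The highest was Mrps9, with 81 mutant-IP against 24 mock-IP reads, a ratio of 3.12 (1.96 to 5.15). Mrpl45, a protein that lies at the exit of the ribosome's tunnel by the inner membrane, had 91 against 29, a ratio of 2.91 (1.89 to 4.58). Mrpl19, Mrpl35 and Mrpl27 followed with ratios of 2.10, 1.72 and 1.62, and the intervals of all 5 lay above 1.

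At the other end stood Mrpl43, with 27 mutant-IP against 63 mock-IP reads, a ratio of 0.397 (0.243 to 0.632). Its gene overlaps Twnk, the gene of the mitochondrial DNA helicase, and whether strand was used in counting was not stated in the labels, so reads of the pair may not have been told apart. Mrpl28 had 29 and 51, a ratio of 0.527 (0.322 to 0.847). Mrpl10, which carries the stalk of the large subunit, gave 0.690 on 41 and 55 reads, and its interval from 0.449 to 1.05 includes 1. Mrps2 and Mrpl49 gave 0.763 and 0.766, also with intervals that include 1.

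Counting intervals lay above 1 for 22 of the 68 genes and below 1 for 4, or 32.4% and 5.88%. Of all features 39.9% lay above and 15.5% below. The 4 below were Mrpl43, Mrpl28, Mrpl53 and Mrps18a, which had 17 mutant-IP against 43 mock-IP reads, a ratio of 0.366 (0.196 to 0.655). Mrps18a overlaps Rsph9. In all, 23 of the 72 genes overlap another gene in RefSeq's table, 19 of them a protein-coding one. Mrpl27, Mrpl19, Mrpl24, Mrpl53, Mrps7, Mrps6, Mrps25, Mrpl2 and Mrpl49 are among these. The limit thus also holds for genes higher in the mutant IP and for genes with 0 input reads.

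The 3 Mrps18 paralogs share descent from 1 bacterial protein but take different places, in mammals Mrps18a in the large subunit and Mrps18b and Mrps18c in the small. Their reads differed as well. Mrps18b had 13 mutant-IP against 11 mock-IP reads, a ratio of 1.09 (0.452 to 2.70), and Mrps18c had 7 and 0, at least 2.16-fold higher. Only Mrps18a was lower in the mutant IP beyond counting error, and whether the paralogs differ from each other was not tested.

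Of the stalk proteins, Mrpl11 at the base had 18 mutant-IP against 13 mock-IP reads, and Mrpl12, the counterpart of the bacterial stalk protein itself, had 42 and 32, with ratios of 1.28 and 1.22. With Mrpl10 at 0.690, all 3 intervals include 1. Mrps12, a protein of the decoding centre, gave 1.54 (0.633 to 4.0) on 15 and 9 reads. Mrps30, placed in the large subunit in mammals despite its name, gave 1.69 (0.906 to 3.25) on 31 and 17.

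Mrps36, now assigned to the 2-oxoglutarate dehydrogenase complex, had 7 reads in the mutant IP and 0 elsewhere. Of the small proteins, Mrpl33 had 13 mutant-IP against 9 mock-IP reads, while Mrpl34 had 3 reads in the mock input and 0 in each other library. Mrpl54 had 0 reads in all 4 libraries, Mrps34 had 1 read in the mock input only and Mrpl52 1 in the mutant IP only. Mrps21 had 8 reads in the mutant IP only. Mrpl44, Mrpl14 and Mrps33 had 5, 5 and 3 in the mock IP only. Of these, Mrps21 and Mrps36 were at least 2.47- and 2.16-fold higher in the mutant IP, with exact intervals that start at 1.58 and 1.33. The ratio of Mrpl33 was 1.34 (0.529 to 3.55). Its interval and those of Mrpl44, Mrpl14 and Mrps33 include 1.

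Genes named Mrps had a higher median between the IPs than genes named Mrpl, with 0.68 over 27 genes against 0.17 over 41. Summed mutant-IP reads were 730 against 429 mock-IP reads for Mrps, a ratio of 1.58 (1.40 to 1.78), and 1233 against 882 for Mrpl, a ratio of 1.29 (1.19 to 1.41). The difference between the names was not tested, and among genes with 20 reads in each IP the medians were 0.30 over 6 Mrps genes and 0.17 over 15 Mrpl genes. Genes with and without a bacterial counterpart were closer, with medians of 0.34 over 44 and 0.26 over 23 and summed ratios of 1.38 and 1.39.

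Mitochondrial and cytosolic ribosomal protein genes gave similar summed ratios, 1.39 (1.29 to 1.49) and 1.34 (1.31 to 1.38), and nuclear-encoded genes of oxidative phosphorylation gave 1.38 (1.31 to 1.45). The medians were 0.32, 0.44 over 81 cytosolic genes and 0.51 over 72 oxidative phosphorylation genes. The cytosolic genes were more narrowly spread, with a middle 50% from 0.09 to 0.79, and also far better covered, with 75 of 81 at 20 reads or more in each IP against 21 of 72 mitochondrial genes. At least 4-fold higher were 2 of 81 cytosolic (2.47%) and 9 of 72 oxidative phosphorylation genes (12.5%), beside 10.1% of all features. At least 4-fold lower were 1 (1.23%) and 2 (2.78%), beside 5.74%.

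**Figure D3:**
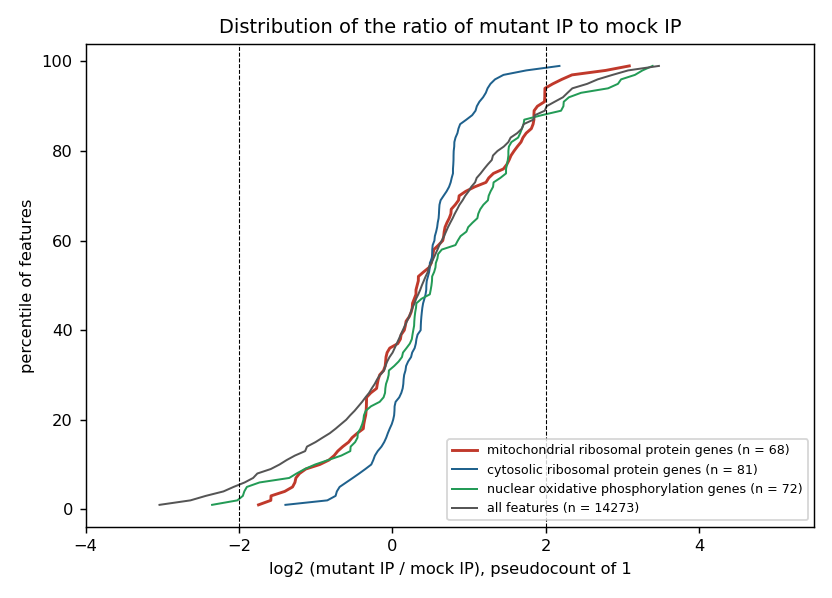
Percentile of features (vertical) against the log2 ratio of mutant IP to mock IP (horizontal, pseudocount of 1) for the 68 mitochondrial ribosomal protein genes, 81 cytosolic ribosomal protein genes, 72 oxidative phosphorylation genes and all 14273 features, with dashed lines at 4-fold. The curve of the mitochondrial genes crosses the middle at 0.32, close to that of all features at 0.38, and the cytosolic curve is the steepest.

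Some mitoribosomal proteins carry other names. Of 7 such genes, 0 were 4-fold apart between the IPs with the pseudocount, and their median was 0.60. On plain ratios Aurkaip1, a small subunit protein, was past 4-fold, with 36 mutant-IP against 7 mock-IP reads, a ratio of 4.76 (2.09 to 12.7). Ptcd3, an RNA-binding protein of the small subunit, had 121 mutant-IP against 73 mock-IP reads, a ratio of 1.53 (1.14 to 2.08). Dap3, a GTP-binding small subunit protein, had 94 and 43, a ratio of 2.02 (1.40 to 2.98). Gadd45gip1, a large subunit protein, had 16 and 35, a ratio of 0.423 (0.219 to 0.785). The direction thus differed between genes, as within the named family.

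Among 34 factors that assemble the mitochondrial ribosome or work with it, 5 were at least 4-fold higher in the mutant IP and 3 lower, or 14.7% and 8.82% beside the 10.1% and 5.74% of all features, with a median of 0.16. The elongation factor Gfm1 was the best covered of those past the threshold, with 108 mutant-IP against 23 mock-IP reads, a ratio of 4.35 (2.75 to 7.15). The pseudouridine synthase-like protein Rpusd3 had 37 reads against 0, at least 11.4-fold higher, and Rnmtl1, Fastkd2 and Mtrf1 had 15, 14 and 12 against 0. Lower were Mtg2, a GTPase of ribosome assembly with 4 reads against 37, a ratio of 0.10 (0.0259 to 0.279), and Rpusd4 and Mettl17, with 0 reads against 13 and 9. On plain ratios, among the 22 factors with 5 reads in each IP, Mtif2 was past 4-fold beside Gfm1, with 64 against 14 reads, 4.23 (2.35 to 8.17). Mpv17l2 was past it in the other direction, with 9 against 34, 0.245 (0.103 to 0.522). Of all features with that coverage 4.41% were higher and 1.11% lower on plain ratios.

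Each IP was then set over the input of its own condition, a comparison into which the RiboMinus selection of the inputs also enters. In the mutant, 35 of 63 genes were at least 4-fold higher in the IP than in the input and 0 were lower, with a median log2 ratio of 2.34. Of all 13637 features 61.1% were higher and 2.32% lower, with a median of 2.44. In the mock, 26 of 63 were higher and 0 lower, with a median of 1.80, and of all 13111 features 60.6% were higher and 1.92% lower, with a median of 2.32. The shares of genes, 55.6% and 41.3%, were thus below the background, by more in the mock. Counting intervals lay above 1 for 44 genes and below 1 for 0 in the mutant, where 73.6% and 4.39% of features did, and for 39 and 2 in the mock, where 76.2% and 4.08% did. Centred in the same way, the median of the genes was -0.73 for the mutant, against -0.63 for all features, and -1.22 for the mock, against -0.70.

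Few of the genes carried most of the family's input reads. The 7 with the most reads in the mutant input were Mrpl35, Mrpl27, Mrpl19, Mrpl51, Mrpl9, Mrpl43 and Mrpl28, all of the large subunit. Of the 7 highest in the mock input, 6 were the same genes. Together the 7 held 475 of the family's mutant-IP reads (24.2%) and 354 of its mock-IP reads (27.0%), but 258 of its reads in the mutant input (69.9%) and 272 in the mock input (63.6%). The number of 7 was chosen after the values were seen.

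**Figure D4:**
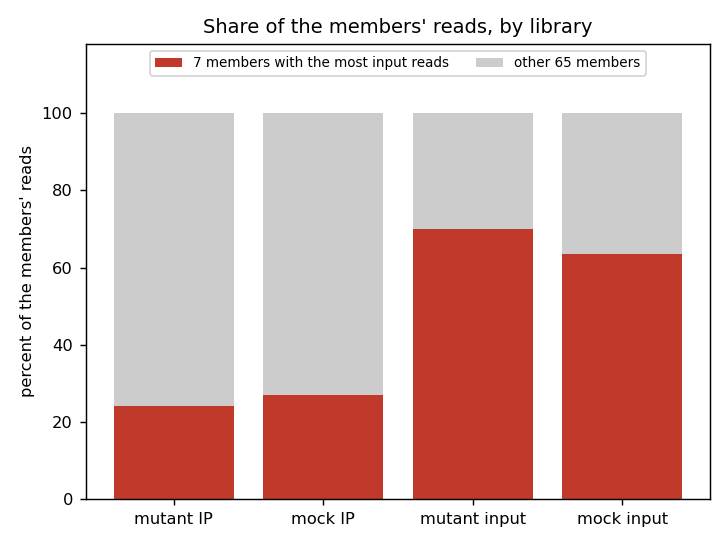
Stacked bars give the percent of the family's reads held by the 7 genes with the most input reads (red) and by the other 65 genes (grey) in the mutant IP, mock IP, mutant input and mock input. The red part is 24.2% and 27.0% in the IPs and 69.9% and 63.6% in the inputs.

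Those 7 genes had about as much in the IP as in the input, while the rest of the family had several times more. In the mutant, their summed ratio of IP to input was 1.23 (1.05 to 1.43), against 8.94 (7.37 to 10.9) for the other 65 genes. The 7 genes were those with the highest values summed over both inputs. The ratios of both conditions thus describe genes chosen for high input values. In the mock the ratio was 1.30 (1.11 to 1.53), against 6.13 (5.17 to 7.31) for the other 65. Neither difference is a test. Over all 72 genes the ratios were 3.55 (3.17 to 3.97) in the mutant and 3.06 (2.74 to 3.42) in the mock, against 4.94 and 6.39 for all features. The sums for all features include Lars2, whose own ratios were 7.70 and 10.7. Outside Lars2 the family's share of reads was 0.180% in the mutant IP and 0.180% in its input. In the mock pair it was 0.170% and 0.226%.

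Most single genes of the 7 had ratios near 1. Mrpl9, with a bacterial counterpart, had 22 mutant-IP and 24 mutant-input reads, a ratio of 0.611 (0.327 to 1.14), and in the mock pair 11 and 24, a ratio of 0.458 (0.203 to 0.972). Mrpl51 gave 0.844 (0.509 to 1.41) in the mutant and 1.0 (0.629 to 1.59) in the mock. Mrpl27 gave 1.21 and 0.867, and both intervals include 1.

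Mrpl35 gave 1.45 (1.12 to 1.88) in the mutant and 1.49 (1.09 to 2.04) in the mock, nearly the same ratio in libraries that share no reads. Mrpl19, with 75 and 32 reads in the mutant IP and its input and 33 and 33 in the mock pair, gave 1.56 and 1.0. Mrpl43 gave 1.0 in the mutant and 1.91 (1.23 to 3.0) in the mock, and Mrpl28 gave 1.29 and 4.25 (2.24 to 8.76). Mrpl28 was the only one of the 7 past 4-fold on the ratio of values, and only in the mock.

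Genes covered in the IPs but not in the inputs stood at the other end. Mrpl24 was at least 20.9-fold higher in the IP than in the input in the mutant and at least 19.7-fold in the mock. With counting error in both libraries, its exact intervals start at 16.7 and 15.5. Mrpl2, a core large subunit protein with a bacterial counterpart, had 55 mutant-IP and 45 mock-IP reads against 0 in both inputs, at least 12.2- and 15.0-fold. Mrpl49, found only in mitochondria, had 24 and 29 against 0, at least 5.33- and 9.67-fold. Mrps5 had 69 reads in the mutant IP against 0 in the input, at least 15.3-fold, and 50 against 1 in the mock, a ratio of 50 with an interval from 8.57 to 2014. Mrpl24, Mrpl2 and Mrpl49 were the genes with at least 20 reads in both IPs and 0 in both inputs, so their place was fixed by that choice.

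**Figure D5:**
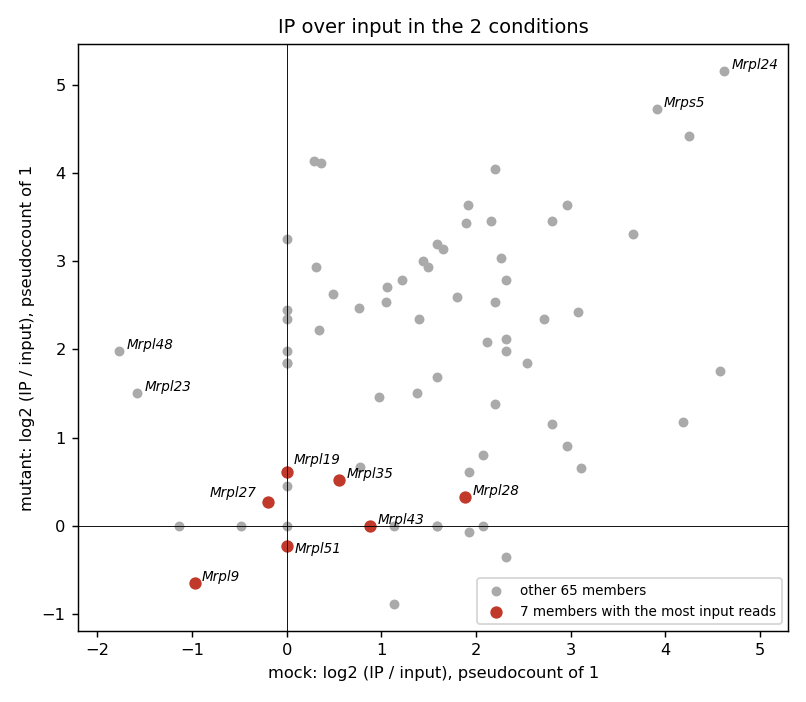
Log2 ratio of IP to input in the mutant (vertical) against the mock (horizontal) for all 72 genes with a pseudocount of 1, the 7 genes with the most input reads in red and the other 65 in grey. The 7 lie near 0 on the vertical axis, Mrpl24 and Mrps5 are at the upper right, and Mrpl48 and Mrpl23 are above 0 in the mutant and below 0 in the mock.

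Restricting the comparison to covered genes kept mostly those with many input reads. With at least 5 reads in both libraries, 3 of 17 genes were 4-fold higher in the mutant IP than in its input and 0 of 19 in the mock, where 49.5% of 4580 and 50.3% of 4540 features were. In these sets 0 genes were 4-fold lower, where 1.57% and 1.1% of features were. The 3 were Mrps25, Mrps9 and Mrps26. On plain ratios the same 3 of 17 were higher in the mutant, where 54.2% of features were higher and 1.81% lower. In the mock 4 of 19 were higher on plain ratios, where 56.5% of features were higher and 1.3% lower. These were Mrpl45 at 4.83 (1.97 to 14.2), Mrpl15 at 4.63 (2.12 to 11.5), Mrpl28 at 4.25 and Mrpl3 at 4.2 (1.54 to 14.3). Mrps25 had 54 mutant-IP and 5 mutant-input reads, a ratio of 7.20 (2.90 to 23.1), and in the mock pair 34 and 19, a ratio of 1.79 (0.992 to 3.32). With 20 reads in both, 0 of 5 genes in the mutant and 0 of 5 in the mock were 4-fold higher, where 39.7% and 44% of features were. Of cytosolic ribosomal protein genes with 5 reads in both, 49 of 70 were higher in the mutant and 36 of 70 in the mock. Whether the mitochondrial genes differ from them was not tested.

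The summed ratio of IP to input was 8.11 (6.23 to 10.7) for Mrps and 2.66 (2.35 to 3.02) for Mrpl in the mutant, and 6.6 (5.07 to 8.71) and 2.43 (2.15 to 2.75) in the mock. The 7 genes with the most input reads are all Mrpl. Leaving genes out for high input values raises the ratio of the rest by construction, and without the 7 the other 37 Mrpl genes gave 9.91 (7.46 to 13.4) in the mutant and 5.80 (4.64 to 7.33) in the mock. Over the 10 genes with 5 reads in every library, the log2 ratios in mutant and mock correlated with Pearson's r = 0.44 and Spearman's rho = 0.47, as a description across genes that share annotation and length between the libraries.

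Mutant and mock inputs compare the RNA of the cells before the recovery, where fewer cells of a type and less RNA per cell cannot be told apart. Of 41 genes with a value of at least 1 in either input, 12 were at least 2-fold higher in the mutant and 16 lower, or 29.3% and 39.0%, where 37% of all 9367 features were higher and 21.8% lower. The median log2 ratio was 0.10, against 0.51 for all features, and summed reads gave 1.20 (1.04 to 1.38), against 1.47 for all features. Equal totals turned the median to -0.35. Counting intervals lay above 1 for 6 genes and below 1 for 3, where 23.8% and 8.62% of features did. Of the 12, 11 had 0 reads in the mock input, and of the 16, 13 had 0 in the mutant input. Most of these calls thus rested on which low genes had reads at all. Of all 16470 genes, 48% were at 0 in the mutant input and 49.2% in the mock input. How many called features of the whole table rested on 0 reads was not counted, so this is not given as a trait of the family.

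A minimum of 5 reads in each input leaves out, by construction, the genes at 0 in 1 of them. With 5 reads in each, 0 of 10 were 2-fold higher and 1, Mrps25, was 2-fold lower, where 20.7% of 3233 features were higher and 3.37% lower. On plain ratios 1 was higher, Mrps24 at 2.08 (0.662 to 7.11), and 1 lower, again Mrps25, where 25.8% of features were higher and 5.35% lower. Mrps25 gave 0.365 on 5 and 19 reads, with an interval from 0.107 to 1.01 that includes 1. Mrpl35 gave 1.77 (1.28 to 2.45), and Mrpl27, Mrpl19 and Mrpl51 gave 1.16, 1.35 and 1.04 with intervals that include 1. Mrpl1 and Mrps10 each had 9 reads in the mutant input and 0 in the mock, at least 4.17-fold higher, and Mrps2 had 8 and 0, at least 3.70-fold. Mrpl11 had 0 and 10. The IPs held 10 and 10 reads of Mrps10 and 47 and 57 of Mrps2, mutant before mock, so neither was higher in the mutant there.

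The specific IP enrichment divides IP over input in the mutant by IP over input in the mock. Of 69 genes, 9 were at least 4-fold higher and 8 lower, or 13.0% and 11.6%, where 13.8% of all 15060 features were higher and 10.6% lower. The median log2 value was 0.49, against 0.13 for all features. On this scale, with the pseudocount, all 9 higher genes had 0 reads in the mutant input, and all 8 lower genes had 0 reads in the mock input. The same was not counted for the called features of the whole table, so it is not given as a trait of the family. Of all genes in the table, 48% were at 0 in the mutant input and 49.2% in the mock input. The highest were Mrpl46 at 3.85 and Mrpl38 and Mrpl48 at 3.75, and the lowest were Mrps18a at -3.01 and Mrps2 at -2.81.

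With at least 5 reads in every library, 0 of 10 genes were 4-fold apart, where 1.92% of 2974 features were higher and 2.86% lower. On plain ratios 1 was higher, Mrps25 at 4.02-fold, and 0 were lower, where 3.26% of features were higher and 5.04% lower. With the pseudocount, the highest of the 10 were Mrps25 at 1.71, Mrpl19 at 0.62, Mrpl12 at 0.49, Mrpl27 at 0.47 and Mrpl9 at 0.33. The lowest were Mrpl28 at -1.55, Mrpl43 at -0.88, Mrpl51 at -0.23, Mrps24 at -0.10 and Mrpl35 at -0.03. Mrps24 had 23 reads in the mutant IP, 12 in the mock IP, 9 in the mutant input and 6 in the mock input.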

How the data were processed

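Per the submitters' processing notes, reads were aligned with Bowtie to mm9. Aligner version, counting tool, strand use and filters were not given in the sources used here. Deposited by the authors was a signal per transcript and library, for 16470 mRNAs and 6311 noncoding RNAs. Multiplied by the factor of its library, 100% of values came out whole within 0.02 and were taken as reads. The labels do not explain the factors. Among mRNAs, 26 symbols had been turned into dates and were replaced by their accessions, none of them a mitochondrial ribosomal protein gene.

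From these values log2 ratios were computed with a pseudocount of 1 for features with a value of at least 1 in a library of the ratio. Ratios of 2 libraries carry exact conditional binomial 95% intervals. Against 0 reads, a fold was computed with 3 reads in place of 0 and is a bound for that library only. It leaves out counting error in the other library, so the exact interval can reach a smaller fold. Python 3.11.15, pandas 2.3.3, numpy 2.4.6 and scipy 1.17.1 were used. The ratios and intervals were tested on simulated data.

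The genes, lists and named-gene rule were chosen with earlier results of these data known. Named were the 10 genes with the highest mean, those 4-fold apart between the IPs, the 5 highest and 5 lowest with 20 reads in each IP, or 5 in each library for IP over input and the specific enrichment, genes at 0 in 3 or more libraries, and 12 preset genes. Mrpl2, Mrps26, Mrpl38, Mrpl48, Mrpl23, Mrpl1, Mrps10, Mrps7, Mrps17, Mrps6, Mrps31, Mrpl15, Mrpl3 and the genes of other lists were chosen after their values were seen. Alternatives were the pseudocount, the minimum value, equal totals, centring on the median of features with at least 20 reads summed over the libraries of a ratio, the sum over transcripts, and plain ratios of features with 5 reads in each library.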

Additional observations from a re-analysis of the deposited data

Results flagged for a closer look

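Mrpl48 is a large subunit protein found only in mitochondria. Within the family, Mrpl48 alone had IP over input on opposite sides in the 2 conditions with both counting intervals away from 1. Its 8 mutant-IP reads stood against 0 mutant-input reads, at least 1.78-fold higher, and its 0 mock-IP reads against 6 mock-input reads, at least 2.0-fold lower. The exact intervals start at 1.14 in the mutant and end at 0.849 in the mock. The log2 specific enrichment came to 3.75. The difference was not tested. How many features of the whole table met the same rule was not counted, so the flag cannot be set against a background. Mrpl48 overlaps Rab6a in RefSeq's table.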

How the results depend on the processing

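No paired analysis was possible because each group was 1 library, and for the same reason no library could be left out. Counts below are genes past the fold threshold, higher before lower, and medians are log2 ratios. Equal totals outside Lars2, the minimum of 5 reads in each library, with and without a pseudocount, and leaving out the 7 genes with the most input reads were chosen after seeing the data. Among the values of whole comparisons under other settings, 74 stayed close, 78 moved and 7 changed sign, and the cause was not tested where the setting's own construction does not show it. Between the IPs, counts were 11 and 3 with a pseudocount of 0.5, 0 and 0 with 5, 3 and 0 with a minimum value of 5, 2 and 0 with equal totals, with or without Lars2, 2 and 1 with median centring, and 0 and 0 with 5 reads in each library. The median was 0.21 with a pseudocount of 5, 0.52 with a minimum value of 5, 0.15 with equal totals, -0.065 with median centring and -0.027 with equal totals outside Lars2. Counts moved over the whole table too. Of all 14273 features, 2112 and 1378 were past the fold with a pseudocount of 0.5 and 90 and 10 with 5. With equal totals 688 and 459 were, outside Lars2 626 and 579, and with median centring 835 and 1217. A minimum value of 5 left 46 of the genes and 10859 features, and 968 and 441 of those features were past the fold. For the specific enrichment, counts were 18 and 12 with a pseudocount of 0.5, 1 and 0 with 5, 5 and 5 with a minimum value of 5, 18 and 10 with equal totals, 15 and 9 outside Lars2, and 0 and 0 with 5 reads in each library, where the median was 0.15. Of all 15060 features, 3095 and 2686 were past the fold with a pseudocount of 0.5 and 206 and 84 with 5. With equal totals 2695 and 2255 were, and outside Lars2 2327 and 2154. Here a minimum value of 5 left 47 genes and 11118 features, and 1554 and 1090 of those features were past the fold. For mutant IP over input, counts were 8 and 0 with a pseudocount of 5, 18 and 5 with equal totals, 18 and 1 outside Lars2, 1 and 14 with median centring and 3 and 0 with 5 reads in each library. Its median was 2.79 and 0.97 with pseudocounts of 0.5 and 5, 1.99 without a filter, 2.67 with a minimum value of 5, 1.29 with equal totals, 1.41 outside Lars2, -0.73 with median centring and 0.61 with 5 reads in each library. Of all 13637 features, 3853 and 86 were past the fold with a pseudocount of 5 and 4028 and 1429 with equal totals. Outside Lars2 4464 and 1022 were, and with median centring 434 and 2643. For mock IP over input, counts were 35 and 2 with a pseudocount of 0.5, 5 and 0 with 5, 16 and 0 with a minimum value of 5, 13 and 9 with equal totals, 14 and 5 outside Lars2, 0 and 17 with median centring and 0 and 0 with 5 reads in each library. Its median was 2.32 and 0.72 with pseudocounts of 0.5 and 5, 1.58 without a filter, 2.01 with a minimum value of 5, 0.81 with equal totals, 0.91 outside Lars2, -1.22 with median centring and 0.76 with 5 reads in each library. Of all 13111 features, 9301 and 593 were past the fold with a pseudocount of 0.5 and 3105 and 79 with 5. With equal totals 3678 and 1513 were, outside Lars2 4397 and 1143, and with median centring 300 and 2333. In the mock a minimum value of 5 left 32 genes and 9123 features, and 6842 and 170 of those features were past the fold. Between the inputs, counts were 2 and 0 with a pseudocount of 5, 2 and 3 with a minimum value of 5 and 0 and 1 with 5 reads in each library. That median was 0.30 under both minimums, -0.35 with equal totals, -0.31 with median centring and -0.37 outside Lars2. Past the fold were 742 and 174 of all 9367 features with a pseudocount of 5. With a minimum value of 5, which left 14 of the genes, 1309 and 365 of 3633 features were. Median centring also turned the sign of genes for IP over input, in the mutant Mrpl10 (-0.47), Mrps16 (-0.73), Mrpl36 (-0.44), Mrps9 (-0.036), Mrps25 (-0.60), Mrps18b (-0.53), Mrpl33 (-0.53), Mrpl11 (-0.13) and Mrps12 (-0.36), and in the mock Mrpl53 (-0.95), Mrps9 (-0.75), Mrpl33 (-0.82) and Mrps30 (-0.058). The share of reads on the genes outside Lars2 was 0.180% in the mutant IP, 0.170% in the mock IP, 0.180% in the mutant input and 0.226% in the mock input. Without the 7 genes with the most input reads, the summed ratio of IP to input was 8.94 in the mutant and 6.13 in the mock. With no pseudocount and 5 reads in each library, counts were 4 and 0 between the IPs, 1 and 0 between the 2 conditions' IP over input, 3 and 0 in the mutant alone, 4 and 0 in the mock alone and 1 and 1 between the inputs. Depth limits the inputs most, where the median gene had 0 reads.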
